A study of Homo sapiens with 9 samples.

Results

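The suppressors of cytokine signalling (SOCS1 to SOCS7 and CISH) are the 8 genes described here, out of 60719 genes with a transcript level in each of 9 RNA-seq libraries. They were chosen by symbol, as the complete family, and all 8 were found in the table. The family itself was picked with transcript levels of these libraries across the 3 groups already known, so its levels and differences are descriptions and support no claim of their own. Levels are in TPM, the transcript copies of a gene per set total of all transcripts, a relative abundance per transcript length, so genes can be compared with each other. TPM carries no read depth, and the precision of each library is therefore unknown.

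All libraries came from wild-type MDA-MB-231 cells, an established human breast cancer line with mesenchymal features, kept for 72 h in medium with 5% exosome-depleted serum. Recipient cells received no vesicles (No sEV), small extracellular vesicles from donor cells of the same line given DMSO (Cont sEV), or vesicles from donors given nocodazole at 100 ng/ml (TIS sEV, for therapy-induced senescence). Donors were treated for 72 h and then released for another 72 h before vesicles were collected by differential centrifugation. Each group had 3 libraries. Donor senescence and other effects of nocodazole on the donors cannot be told apart in this design, and no label states that the 3 libraries of a group came from separate cultures, so the error measures only the spread between these libraries. All 8 marker genes of the line were present, with VIM at 2206 to 2299 TPM and AXL at 278 to 304 TPM, and 4 of 8 luminal breast markers were below 1 TPM (ESR1, PGR, CDH1 and FOXA1). The other 4 were present, with KRT19 at 403 to 443 TPM, ERBB2 at 26.2 to 30.7 TPM, EPCAM at 21.1 to 25.9 TPM and GATA3 at 2.63 to 4.54 TPM. Of 7 leukocyte genes, the pan-leukocyte gene PTPRC was at 0.125 to 1.41 TPM, while CD68, which carcinoma lines also express, was at 146 to 160.5 TPM. The summed level of the 8 line markers was 3967 to 4045 TPM with TIS sEV, above 3839 to 3908 TPM with No sEV and 3819 to 3902 TPM with Cont sEV, and its part in the differences below was not tested.

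SOCS proteins are feedback inhibitors of cytokine receptors that signal through Janus kinases (JAKs) and STAT transcription factors. Activated STATs induce several SOCS genes, and the proteins then bind phosphorylated receptors or the kinases through an SH2 domain and recruit a ubiquitin ligase through the C-terminal SOCS box. SOCS1 and SOCS3 also inhibit JAKs directly, CISH and SOCS2 act chiefly on receptors that use STAT5, and SOCS4 to SOCS7 are linked to receptor tyrosine kinases and insulin signalling. In breast cancer cells such feedback limits signalling by interleukin 6 family cytokines, growth hormone, prolactin and interferons.

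A known sequence feature in the family is the STAT response element in the CISH promoter. It is shown because, of the 5 members with windows in the sequence table, CISH alone held the element there, and it had the lowest mean level of the family here. The 250 bases before the RefSeq start of CISH (GRCh38.p14, chr3:50611775-50612024, minus strand) read as follows, with each match to TTCNNNGAA in capitals.
CISH: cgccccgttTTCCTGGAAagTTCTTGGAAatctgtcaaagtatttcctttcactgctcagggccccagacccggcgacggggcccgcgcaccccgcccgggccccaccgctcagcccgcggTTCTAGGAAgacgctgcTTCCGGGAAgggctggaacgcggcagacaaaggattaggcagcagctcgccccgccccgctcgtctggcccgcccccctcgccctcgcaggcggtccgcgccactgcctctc
The 4 matches begin 241, 230, 129 and 112 bases before the start. The element reads the same on both strands, and no matches overlap. Of 35116 promoter windows of 300 bases in RefSeq (250 before to 50 after a start), 7.66% held at least 1 match and 7 windows held at least 4. The table has windows for CISH, SOCS1, SOCS3, SOCS4 and SOCS6, 6 in all, and the CISH window was the single one of them with a match. The SOCS3 windows belong to RefSeq starts at 78359667 and 78360925 on chromosome 17 and do not cover the bases before the GENCODE start of the gene at 78360077. A match describes letters only and was not tested for binding.

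SOCS2 was the most abundant member, at a mean of 23.2 TPM over the 9 libraries. SOCS3 followed at 16.3 TPM, SOCS5 at 14.9 TPM, SOCS7 at 13.3 TPM, SOCS4 at 11.5 TPM and SOCS6 at 11.2 TPM. SOCS1 and CISH were far lower, at 1.17 and 0.972 TPM. There were 2 steps in this order without overlap. SOCS2 (lowest library 18.9 TPM) lay above SOCS3 (highest library 17.2 TPM), and SOCS6 (lowest library 10.4 TPM) lay above SOCS1 (highest library 1.42 TPM). The neighbours from SOCS3 to SOCS6, and SOCS1 and CISH, overlapped in their ranges, although SOCS3 exceeded SOCS5 in 8 of 9 libraries and SOCS4 exceeded SOCS6 in 7 of 9. The 8 genes summed to 95.1 ± 1.45 TPM with No sEV (SD, n = 3), 90.3 ± 5.11 TPM with Cont sEV and 92.2 ± 1.37 TPM with TIS sEV. All 8 reached 1 TPM in 3 or more libraries and so entered the tests. CISH did so in 6 libraries, 3 of them with Cont sEV, and SOCS1 in all 9. In GENCODE 29 coordinates (GRCh38) SOCS1 lies on chromosome 16 from 11254405 to 11256200, SOCS3 on chromosome 17 from 78356778 to 78360077, SOCS4 on chromosome 14 from 55027230 to 55049488 and SOCS5 on chromosome 2 from 46698952 to 46780245. SOCS6 lies on chromosome 18 from 70288901 to 70330200 and SOCS7 on chromosome 17 from 38352228 to 38405593. The annotation gives each of the 8 as a protein-coding gene.

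**Figure D1:**
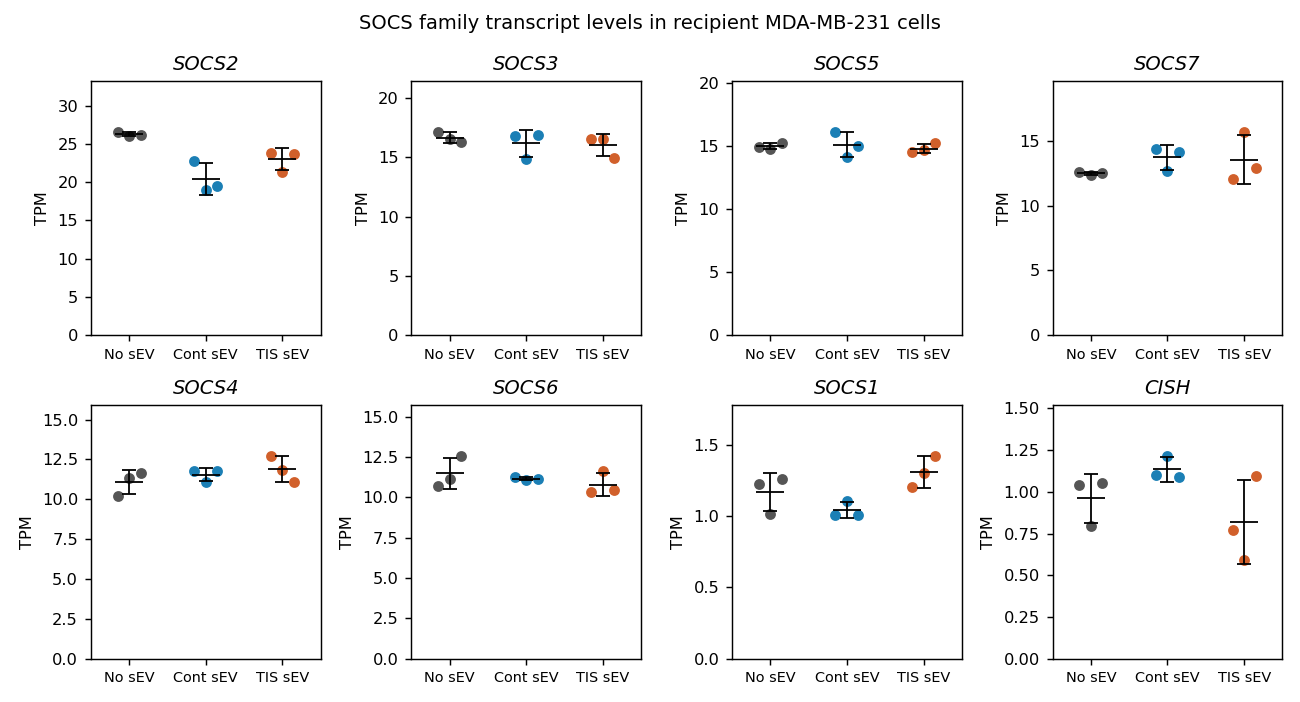
Transcript levels (TPM, linear axes from 0) of the 8 SOCS family genes, 1 panel per gene ordered by mean level; points are libraries, horizontal marks the mean and error bars the SD of 3 libraries per group. The 3 No sEV libraries of SOCS2 lie at 26.1 to 26.6 TPM, above all 6 libraries with vesicles, while for SOCS3, SOCS4, SOCS5 and SOCS6 the 3 groups overlap.

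SOCS2, which limits growth hormone and prolactin receptor signalling, had the largest difference of the better expressed members. Its level was 26.6, 26.1 and 26.2 TPM in the No sEV libraries. The Cont sEV libraries were at 22.8, 18.9 and 19.6 TPM, and the TIS sEV libraries at 23.9, 21.3 and 23.8 TPM. Every library with vesicles was thus below every library without, and the Cont sEV and TIS sEV libraries overlapped. The group means were 26.3 ± 0.272 TPM (SD, n = 3) with No sEV, 20.4 ± 2.09 TPM with Cont sEV and 23.0 ± 1.44 TPM with TIS sEV. The spread of SOCS2 was larger in both vesicle groups than in the No sEV group.

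The mean of SOCS2 was 22.3% lower with Cont sEV than with No sEV, a log2 fold change of -0.35 (SE 0.07, 95% confidence interval -0.51 to -0.20) on the log2(TPM + 1) scale. It did not pass limma's moderated test over all 13879 genes that met the filter (Benjamini-Hochberg adjusted p = 0.610). By unadjusted p it had rank 12 among those genes, and 0.572% of the 10483 genes averaging 5 TPM or more had a larger absolute log2 fold change. For TIS sEV against No sEV the mean was 12.6% lower (log2 fold change -0.19, SE 0.07, interval -0.35 to -0.03, adjusted p = 0.583), at rank 574 by unadjusted p with 5.56% of those 10483 genes larger. For TIS sEV against Cont sEV it was 12.5% higher (log2 fold change 0.165, SE 0.07, interval 0.0069 to 0.32, adjusted p = 0.477), at rank 1235 with 8.47% larger. The comparisons share libraries, since the No sEV libraries enter both comparisons with untreated cells, so their values are not separate evidence.

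SOCS2 made up a smaller share of the family with vesicles. The share is computed from the same SOCS2 values, over a sum that includes them, so it is not separate evidence. It was 27.1% to 28.1% of the summed TPM of the 8 genes with No sEV, 21.6% to 23.9% with Cont sEV and 22.8% to 26.1% with TIS sEV. SOCS2 lies on chromosome 12 from 93569814 to 93583487 on the plus strand (GRCh38, GENCODE 29, ENSG00000120833.14 in the deposited table). The antisense gene SOCS2-AS1 overlaps its 5′ end from 93542463 to 93571768, and 3.16% of the 31-base words of SOCS2 transcripts occur in SOCS2-AS1 on the other strand. SOCS2-AS1 was at 2.43, 3.91 and 4.59 TPM with No sEV, 2.78, 3.24 and 2.21 TPM with Cont sEV and 2.27, 3.24 and 3.77 TPM with TIS sEV. Its groups overlapped, and its log2 fold change for Cont sEV against No sEV was -0.29 (SE 0.20, limma adjusted p = 0.890). No source used here states whether reads were assigned by strand, and the part of antisense reads in the SOCS2 level was not tested. The pseudogenes SOCS2P1 and SOCS2P2 were listed at 0 in all libraries.

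CISH, the other member known for feedback on STAT5-linked receptors, was near the filter. Its level was 1.04, 0.794 and 1.05 TPM with No sEV, 1.10, 1.22 and 1.09 TPM with Cont sEV, and 0.774, 0.594 and 1.09 TPM with TIS sEV. The 3 Cont sEV libraries lay above the 3 No sEV libraries by a narrow margin, and TIS sEV overlapped both groups. The means were 0.962 ± 0.146, 1.13 ± 0.0724 and 0.820 ± 0.252 TPM (SD, n = 3) in that order. The log2 fold change was 0.12 for Cont sEV against No sEV (SE 0.14, adjusted p = 0.941) and -0.24 for TIS sEV against Cont sEV (SE 0.14, adjusted p = 0.615, limma over all genes). Without TIS sEV replicate 2 the latter was -0.15, and without No sEV replicate 2 the former was 0.06. At this level the added constant of 1 TPM compresses the fold change, and with a constant of 0.1 TPM the latter was -0.46. CISH lies on chromosome 3 from 50606490 to 50611831 on the minus strand. Of its 31-base words, 3.64% occur on the other strand in transcripts of MAPKAPK3, a gene at 54.8 to 61.5 TPM, and the part of such reads in the CISH level was not tested.

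SOCS1 and SOCS3 are the members that block JAK activity directly, SOCS1 chiefly after interferons and SOCS3 after interleukin 6 family cytokines. SOCS3 was at 17.2, 16.6 and 16.3 TPM with No sEV, 16.8, 14.8 and 16.9 TPM with Cont sEV and 16.6, 16.6 and 15.0 TPM with TIS sEV. The 3 groups overlapped, and all but the lowest Cont sEV and the lowest TIS sEV library were within 16.3 to 17.2 TPM. Its log2 fold change was -0.04 for Cont sEV against No sEV (95% confidence interval -0.19 to 0.10, adjusted p = 0.963), -0.05 for TIS sEV against No sEV (-0.20 to 0.09, adjusted p = 0.866) and -0.01 for TIS sEV against Cont sEV (-0.15 to 0.13, adjusted p = 0.977). Those intervals leave room for differences of up to 0.20 on the log2 scale.

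SOCS1 was at 1.22, 1.02 and 1.26 TPM with No sEV, 1.01, 1.10 and 1.01 TPM with Cont sEV and 1.2004, 1.30 and 1.42 TPM with TIS sEV. The TIS sEV libraries lay above the Cont sEV libraries without overlap, and the No sEV libraries overlapped both groups. The mean was 1.31 ± 0.112 TPM with TIS sEV and 1.04 ± 0.0548 TPM with Cont sEV (SD, n = 3), a difference in means of 25.7%. The log2 fold change was 0.18 (SE 0.11, interval -0.08 to 0.43, limma adjusted p = 0.659), so the difference did not pass. The constant of 1 TPM compresses it, and with a constant of 0.1 TPM it was 0.30 (adjusted p = 0.677).

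SOCS4 and SOCS5, a pair with long N-terminal regions that are linked to degradation of the epidermal growth factor receptor, differed little between groups. SOCS4 was at 10.2, 11.4 and 11.6 TPM with No sEV, 11.8, 11.1 and 11.8 TPM with Cont sEV and 12.7, 11.9 and 11.1 TPM with TIS sEV. SOCS5 was at 14.9, 14.8 and 15.2 TPM with No sEV, 16.1, 14.1 and 15.0 TPM with Cont sEV and 14.5, 14.6 and 15.2 TPM with TIS sEV. In both genes the 3 groups overlapped. The log2 fold changes of SOCS4 ran from 0.04 to 0.10 and those of SOCS5 from -0.03 to 0.0082 over the 3 comparisons (limma, adjusted p = 0.761 or above for both). SOCS5 had the smallest within-group SD of the family on the log2 scale, at 0.0557, against a median of 0.0909 for 1244 genes of like level. Of the 31-base words of SOCS5, 9.66% also occur in other genes on the same strand, with SOCS5P3 sharing the most at 4.34%. The highest level of any of its pseudogenes in a library was 0.172 TPM, for SOCS5P4.

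SOCS6 and SOCS7 bind insulin receptor substrates and receptor tyrosine kinases. SOCS6 was at 10.7, 11.1 and 12.6 TPM with No sEV, 11.3, 11.1 and 11.1 TPM with Cont sEV and 10.4, 11.6 and 10.4 TPM with TIS sEV, with overlap throughout. SOCS7 was at 12.6, 12.4 and 12.5 TPM with No sEV, 14.4, 12.7 and 14.2 TPM with Cont sEV and 12.1, 15.7 and 12.9 TPM with TIS sEV. The Cont sEV libraries of SOCS7 lay just above the No sEV libraries, the closest of them by less than 0.1 TPM, and its TIS sEV libraries spanned both groups. The log2 fold change of SOCS7 was 0.12 for Cont sEV against No sEV (SE 0.09, adjusted p = 0.891) and 0.10 for TIS sEV against No sEV (SE 0.09, adjusted p = 0.806). TIS sEV replicate 2 carried the second of these: without it the value was -0.000275.

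**Figure D2:**
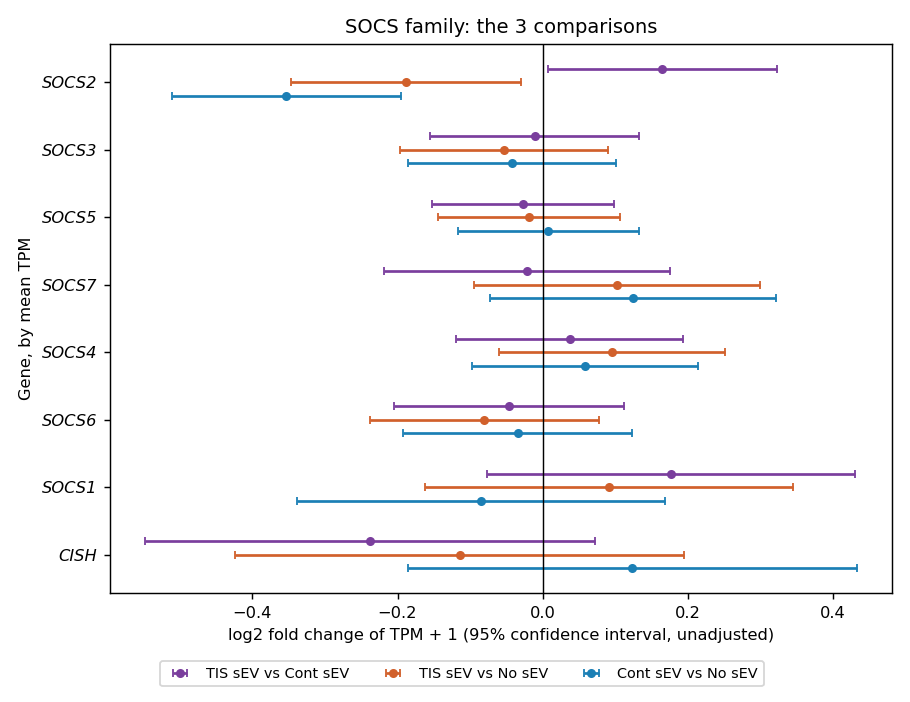
Log2 fold changes of TPM + 1 for each SOCS family gene in the 3 comparisons, with points for the estimate and bars for limma's 95% confidence interval, which is not adjusted for the number of genes. The SOCS2 bars do not reach 0, from -0.51 to -0.20 for Cont sEV against No sEV, and the bars of the other 7 genes cross 0 in each comparison.

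Counted over the family, 0 of 8 members passed limma's test at an adjusted p under 0.05 in any comparison. Over all tested genes the share that passed was 0.0937% for TIS sEV against Cont sEV, 0.00721% for TIS sEV against No sEV and 0% for Cont sEV against No sEV. At an unadjusted p under 0.05 the count was 1 of 8 in each comparison, SOCS2 each time, where 10.0%, 7.97% and 6.03% of all tested genes had such a p in the same order. For TIS sEV against Cont sEV, 1 member lay above without overlap (SOCS1; 10.9% of all genes did) and 0 lay below (4.47% of all genes). For TIS sEV against No sEV, 0 members lay above (11.3% of all genes) and SOCS2 lay below (2.77%). For Cont sEV against No sEV, SOCS7 and CISH lay above (6.72%) and SOCS2 lay below (4.47%). Against these shares no count of members was read as a result. The family median was -0.02, -0.04 and -0.01 on the log2 scale in the same order, against 0.02, 0.03 and 0.01 over all tested genes.

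Genes around the family were counted in 10 lists of 150 genes, of which 122 were tested. None of the 122 passed limma's test over all genes in any comparison, the smallest adjusted p being 0.0737. At an unadjusted p under 0.05 there were 20 (16.4%), 12 (9.84%) and 9 (7.38%) of 122 for TIS sEV against Cont sEV, TIS sEV against No sEV and Cont sEV against No sEV. Over all tested genes the shares were 10.0%, 7.97% and 6.03%. The lists were chosen with earlier results of these data known, so no list count is read as a result. The values below describe some of the genes of smallest p in each list. Others of as small or smaller p are not named.

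Of 19 cytokine genes, the ligands of the pathway, 13 were tested. Between TIS sEV and Cont sEV 6 of them had an unadjusted p under 0.05 (10.0% of all tested genes did). With TIS sEV 9 of the 13 were higher (59.6% of all tested genes were). Their median difference was 0.02 on the log2 scale, as it was over all genes. IL11, a cytokine of the interleukin 6 family, was at 355, 345 and 369 TPM with TIS sEV, 319, 307 and 295 TPM with Cont sEV and 336, 327 and 331 TPM with No sEV. The 3 groups did not overlap, with Cont sEV lowest and TIS sEV highest (log2 fold change 0.22 for TIS sEV against Cont sEV, SE 0.03, adjusted p = 0.0737). IL24, which acts through STAT3, was at 429 ± 7.30 TPM with TIS sEV against 385 ± 10.6 TPM with Cont sEV (SD, n = 3; log2 fold change 0.15, adjusted p = 0.0909). The listed receptor subunit genes for IL24, IL20RB and IL22RA1, were at 0.463 to 0.963 and 0.112 to 0.289 TPM. LIF, another cytokine of the interleukin 6 family, was at 54.8 ± 1.95 TPM with TIS sEV against 47.3 ± 1.91 TPM with No sEV (log2 fold change 0.21, adjusted p = 0.347). CSF3, which signals through STAT3, was at 112.5 ± 3.25 TPM with Cont sEV against 99.3 ± 2.31 TPM with No sEV (log2 fold change 0.18, adjusted p = 0.640). Its receptor gene CSF3R was listed at 0 in all libraries.

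Of 27 receptor genes 19 were tested, and 3, 1 and 1 of them had an unadjusted p under 0.05 in the 3 comparisons, in the same order. Over all tested genes the shares were 10.0%, 7.97% and 6.03%. CSF2RA and CRLF2 are among the 19 although their reads are split over 2 rows of the table each, so their own differences are not described. The shared receptor subunit IL6ST was at 166 to 197 TPM over the 9 libraries, and OSMR, the oncostatin M receptor, was at 87.6 ± 2.34 TPM with Cont sEV, 83.5 ± 1.14 TPM with TIS sEV and 83.0 ± 2.70 TPM with No sEV. The growth hormone receptor GHR, a main target of SOCS2, was listed at 0 in all libraries, and the prolactin receptor PRLR was at 0.329 to 1.07 TPM. The erythropoietin receptor EPOR was at 13.1 to 15.5 TPM. Of the 4 JAK genes JAK1 was at 54.6 to 64.2 TPM, TYK2 at 60.01 to 88.0 TPM and JAK2 at 2.38 to 2.88 TPM, and JAK3 did not pass the filter. TYK2 was at 75.9 ± 10.7 TPM with TIS sEV against 64.5 ± 4.39 TPM with No sEV (log2 fold change 0.22, adjusted p = 0.5885). Of 7 STAT genes 6 were tested, with 0 at an unadjusted p under 0.05 in each comparison. STAT3 was the most abundant at 76.8 to 84.5 TPM, while STAT5A and STAT5B, which act on the CISH promoter, were at 11.03 to 12.4 and 21.7 to 24.3 TPM.

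Genes that STAT3 or STAT5 are known to induce were counted by direction. Of 20 tested, 11 had the higher mean with TIS sEV (59.6% of all tested genes did) and 9 with Cont sEV. Their median difference was 0.0015 on the log2 scale (all genes 0.02), and 8 had an unadjusted p under 0.05, against 10.0% of all tested genes. CEBPD, a transcription factor gene induced by interleukin 6 family cytokines, was at 19.1, 21.6 and 22.3 TPM with TIS sEV, 16.2, 17.0 and 15.3 TPM with Cont sEV and 18.2, 20.1 and 18.6 TPM with No sEV. Its Cont sEV libraries were below all others (log2 fold change 0.36 for TIS sEV against Cont sEV, SE 0.07, adjusted p = 0.128). Its paralog CEBPB was at 66.4 ± 2.16 against 59.2 ± 3.81 TPM (log2 fold change 0.17, adjusted p = 0.294). PIM2, a kinase gene among the STAT5 targets, was at 13.4 ± 0.304 TPM with Cont sEV against 12.2 ± 0.112 TPM with No sEV (log2 fold change 0.13, adjusted p = 0.807). VEGFA was at 368 ± 20.5 TPM with Cont sEV and 369 ± 36.3 TPM with TIS sEV against 319 ± 15.4 TPM with No sEV (adjusted p = 0.789 and 0.539).

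The machinery that SOCS proteins work with was present in every library. ELOB and ELOC, the elongins that bind the SOCS box, were at 277 to 307 and 121 to 136 TPM, and the scaffold CUL5 was at 18.6 to 23.8 TPM. Of these 8 ligase genes, 1 had an unadjusted p under 0.05 in any comparison, ARIH2 at 83.6 ± 3.48 TPM with TIS sEV against 79.01 ± 0.755 TPM with No sEV (log2 fold change 0.08, adjusted p = 0.622). In that comparison 7.97% of all tested genes had such a p. The 13 other inhibitors of the pathway, PIAS proteins and phosphatases among them, had 1 such gene, the adaptor gene SH2B3 at 55.6 ± 3.004 TPM with Cont sEV against 51.9 ± 0.900 TPM with No sEV (log2 fold change 0.10, adjusted p = 0.807; 6.03% of all tested genes had such a p there). The 16 tested genes of other SOCS box proteins had 0 in each comparison. Of 11 tested targets of SOCS proteins outside the pathway, 2 had such a p for TIS sEV against Cont sEV (10.0% of all tested genes did), in opposite directions. GRB2 was at 81.04 ± 4.71 TPM with TIS sEV against 74.03 ± 0.876 TPM with Cont sEV (log2 fold change 0.13, adjusted p = 0.337). TIRAP was at 6.04 ± 0.448 TPM with TIS sEV against 6.89 ± 0.195 TPM with Cont sEV (log2 fold change -0.17, adjusted p = 0.486). EGFR, a target of SOCS4 and SOCS5, was at 103 to 125 TPM, with overlapping groups.

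**Figure D3:**
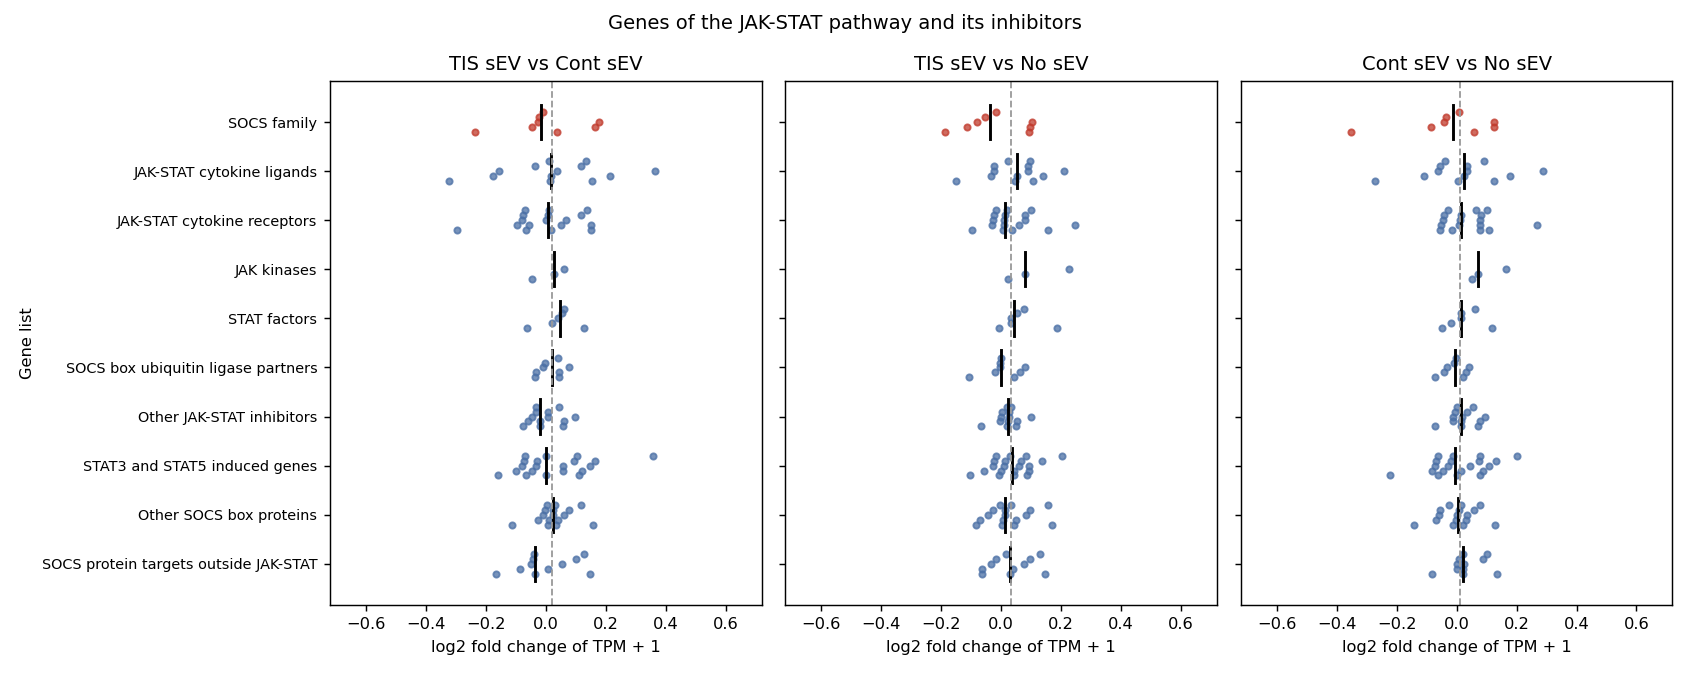
Log2 fold changes of TPM + 1 for the tested genes of the SOCS family (red) and of 9 of the lists around it (blue) in the 3 comparisons; each point is a gene, black bars are list medians and the dashed line is the median of all tested genes. CSF2RA and CRLF2 are left out because their reads are split over 2 rows of the table each. List medians lie within 0.08 of 0, and the lowest SOCS family point is SOCS2 at -0.35 for Cont sEV against No sEV.

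The SOCS2 differences kept their sign in all 60 values obtained under other processing settings or with a library left out. Part of these values could not change. Another filter, the replicate block and the constant prior variance do not alter the estimate. Nor does fitting only the 6 libraries compared or leaving out libraries of the third group. The count of 60 is therefore no measure of stability. The log2 fold change for Cont sEV against No sEV was -0.43 without Cont sEV replicate 1, the Cont sEV library closest to the No sEV level, and -0.30 without Cont sEV replicate 2. That for TIS sEV against No sEV was -0.14 without TIS sEV replicate 2, and that for TIS sEV against Cont sEV was 0.11 without Cont sEV replicate 2 and 0.24 without Cont sEV replicate 1. The adjusted p of SOCS2 was between 0.272 and 0.998 in these fits.

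**Figure D4:**
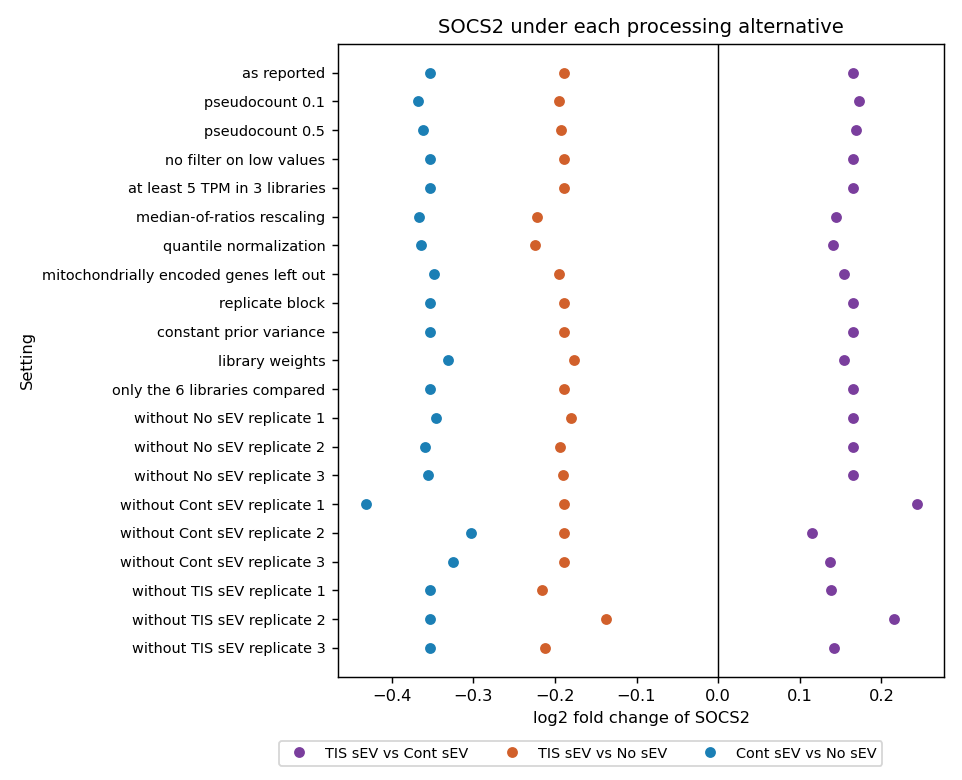
SOCS2 log2 fold change in the 3 comparisons as reported (top line) and under each of 20 alternatives, including each library left out; each point is 1 fit. Points for Cont sEV against No sEV lie from -0.43 to -0.30, those for TIS sEV against No sEV from -0.22 to -0.14 and those for TIS sEV against Cont sEV from 0.11 to 0.24.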

How the data were processed

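Gene-level TPM values were used as the authors deposited them, 60719 genes in 9 libraries, each summing to 1000000. Tools listed in the submitters' processing notes are Salmon 1.4.0, Trim Galore 0.6.6, DESeq2 1.28.0 and FastQC 0.11.9, and the build is GRCh38.p13. Neither annotation release nor strand setting is given in the sources used here. Without counts, no count model was fitted.

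GENCODE 29 gave symbols through the Ensembl IDs (99.51% of rows) and gave coordinates, which may differ from the authors' release. Values were analysed as log2(TPM + 1) for the 13879 genes that reached 1 TPM in 3 or more libraries. A limma model (version 3.58.1, R 4.3.3) covered the 9 libraries and all these genes with a variance trend, two-sided tests and Benjamini-Hochberg adjustment within each comparison at 0.05. The model fit, without the filter step, was also run on simulated data, and nothing above rests on its outcome. The lists' named genes come from those of smallest p, up to 3 per comparison with a mean of at least 5 TPM. Not all of these are named. Members, lists and rules were chosen with earlier results of these data known; genes listed only as ranges or levels (IL6ST, GHR, PRLR, EPOR, STAT3, STAT5A, STAT5B, ELOB, ELOC, EGFR and the JAK genes among them) were named for their role. Of the 10 lists 1, and some marker genes, are not reported here by name.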

Additional observations from a re-analysis of the deposited data

How the results depend on the processing

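The count of SOCS family members that passed was 0 in each of 60 refits (20 alternatives in 3 comparisons), so that leaving out each library gave 0 to 0 members. The alternatives were pseudocounts of 0.1 and 0.5, no filter or at least 5 TPM, median-of-ratios and quantile scaling, removal of mitochondrially encoded genes, a replicate block, a constant prior variance, library weights and only the 6 libraries compared. At least 5 TPM in 3 libraries removed SOCS1 and CISH from testing. The lowest adjusted p of any member was 0.272. Of 474 member values, 15 had the other sign, all of genes whose reported value was at most 0.10 in size, and none of SOCS2. The 474 include values from settings that leave the estimate unchanged. With a pseudocount of 0.1 the log2 fold change for TIS sEV against Cont sEV was 0.30 for SOCS1 and -0.46 for CISH. With the replicate number as a block 0 members passed in each comparison. The numbers are not stated to mark shared material. Of 9 same-numbered pairs, 1 had deviations correlated over 0.1 (range -0.0574 to 0.14 over 10483 genes). The correlations of the 18 pairs with different numbers had a wider range, -0.194 to 0.205. Among libraries of the other groups, 3 of 9 libraries were closest to one of their own number. Depth is unknown, so the counting error behind SOCS1 and CISH, at about 1 TPM, could not be given.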

Other observations

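The genes whose pattern over the 9 libraries was most like that of each member were listed by the root mean square difference of standardised log2 levels, among 10461 tested genes that averaged 5 TPM or more, had a symbol and were no member of the family; with so many candidates and 9 libraries, close matches are found for any gene. For SOCS2 they were DCTN5, at 83.2 TPM with No sEV, 77.1 TPM with Cont sEV and 79.5 TPM with TIS sEV (difference 0.401), and ZSCAN32, at 12.5, 11.4 and 11.95 TPM (0.412). The median difference of a gene from SOCS2 was 1.43. For SOCS1 they were KRT18 (0.282) and TUFM (0.328), for SOCS3 RMRP (0.274) and LRIG3 (0.366), and for SOCS7 AFDN (0.252) and WNT7B (0.326). Those of SOCS4 were SPATA5L1 (0.206) and LRPPRC (0.262), and those of SOCS5 NF1 (0.393) and GPSM2 (0.412). SOCS6 had KBTBD4 (0.385) and CLOCK (0.396), and CISH had SLC25A23 (0.346) and SEC61A1 (0.411). Standardising removes the size of the spread. RMRP was at 52.5 ± 9.20 TPM with No sEV, 28.0 ± 24.3 TPM with Cont sEV and 33.3 ± 28.9 TPM with TIS sEV (SD, n = 3).

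CSF2RA, the receptor gene for the granulocyte-macrophage factor, ranged from 0 to 11.97 TPM and was listed at 0 in 2 libraries, which included libraries of different groups. The table has a second row for the copy of this gene on the other sex chromosome, and both rows together gave 8.995 to 12.4 TPM. The same held for CRLF2, listed at 0 in 6 libraries and at 1.61 to 2.63 TPM over both rows. Their single rows entered the fit and the count of tested receptors, and no difference between groups is described from them.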
